A study of Mus musculus with 12 samples.

Results

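The nuclear genes for the subunits of respiratory complexes II to V, and the gene for cytochrome c, were followed in mouse skeletal muscle. They were taken from both deposited count tables by symbol: Sdha to Sdhd, Cyc1, Cycs, and every symbol that starts with Uqcr, Cox4i, Cox5, Cox6, Cox7, Cox8 or Atp5, without 7 symbols marked as pseudogenes (-ps). This gave 48 genes of the 21976 that both tables hold: 4 of complex II, 9 of complex III, cytochrome c, 17 of complex IV and 17 of complex V. Of these, 46 had enough reads to be tested, while Cox6b2, the testis form of a complex IV subunit (0 to 5 counts per library), and Cox6c2, a listed copy of Cox6c (0 to 1 count), did not.

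RNA was sequenced from 12 libraries of C57BL/6N mice, 3 in each of 4 groups. PCN mice ate a high-fat diet for 18 weeks from the age of 6 weeks and were injected into the peritoneal cavity daily for 4 days with 50 mg/kg of pregnenolone carbonitrile, a steroid that activates the rodent pregnane X receptor. Vehicle mice ate the same diet and had the injections without the drug, in corn oil with 30% DMSO, HFD mice had the diet alone, and Chow mice ate regular chow. The sources used here do not name the muscle sampled or state that each library came from a separate mouse, so p-values measure the spread between these libraries.

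Complexes II, III and IV pass electrons from succinate and ubiquinol through cytochrome c to oxygen, and complex V, the ATP synthase, uses the proton gradient that complexes III and IV help to build. Oxidative muscle fibres hold more mitochondria than fast glycolytic fibres and so carry more transcripts of these subunits. Several complex IV subunits come in a form that heart and skeletal muscle express and a form found in most tissues, while the c subunit of the ATP synthase ring is made from 3 genes whose mature proteins are the same.

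Library totals ran from 12770308 to 19739226 counts. Levels are counts-per-million values (CPM) after TMM scaling of all 12 libraries together, and fold changes are log2 values from edgeR's quasi-likelihood fits with their standard errors (SE). The tissue carried its defining transcripts in every library. The summed level of 6 listed skeletal muscle genes was 150900 to 294500 CPM. Among them Acta1, skeletal actin, was at 9986 to 16690 CPM and Ckm, muscle creatine kinase, at 10900 to 24870 CPM. Levels of these and of the fibre and cell type markers are scaled within each table instead, unless stated. In bulk RNA, fewer cells of a type and less RNA per cell cannot be told apart.

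The subunit genes differed widely in level. Values per kb depend on the transcript length used, such as 3123 bp for Cycs, which averaged 142 CPM. Per kb of transcript, Cox6a2, the muscle form of subunit 6A, had the highest mean level, 808 CPM per kb. It was followed by Atp5b, the catalytic beta subunit of ATP synthase (794 CPM per kb), Atp5a1, its alpha subunit (584 CPM per kb), and Cox8b, the muscle form of subunit 8 (486 CPM per kb). At the low end, after Cycs (45.6 CPM per kb), stood Cox8a (27.3 CPM per kb) and Cox6a1 (12.1 CPM per kb), the ubiquitous partners of Cox8b and Cox6a2, and then Cox4i2, the lung and hypoxia form of subunit 4 (0.77 CPM per kb), and Cox6b2 (0.18 CPM per kb).

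**Figure D1:**
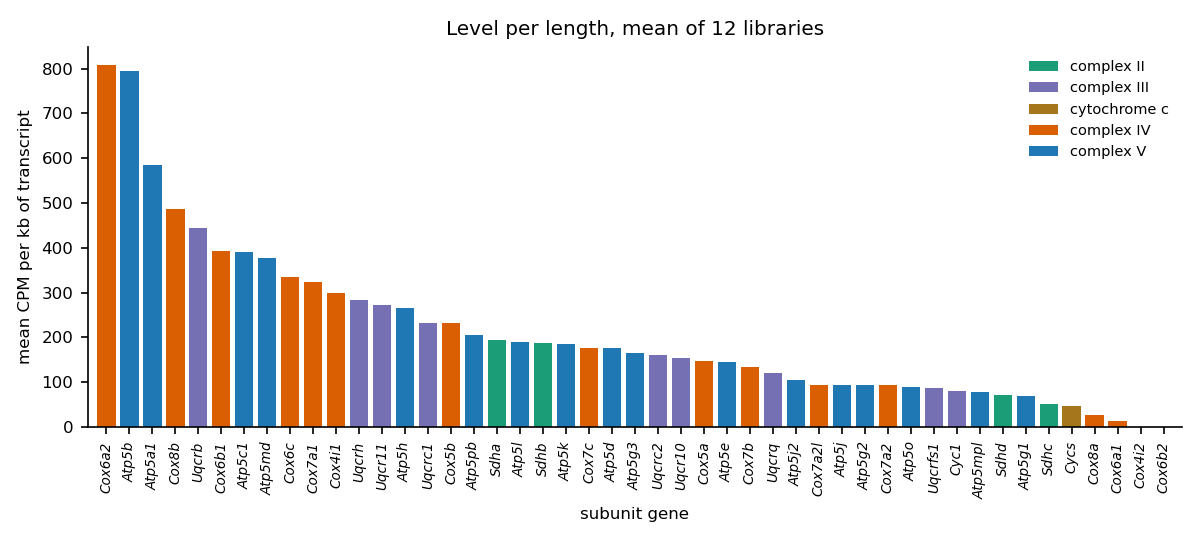
Mean level of each subunit gene over 12 libraries in CPM per kb of coding transcript, ordered from high to low and coloured by complex. Cox6a2 (808 CPM per kb) and Atp5b (794 CPM per kb) lead, and Cox4i2 and Cox6b2 lie near 0; Cox6c2 has no transcript length and is not drawn.

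The clearest pattern was that the 46 genes were high or low together, library by library, across all complexes. All 46 lay above their own 12-library mean in PCN 5 and in Chow 17, and 45 of 46 did in Vehicle 55. In HFD 4, 45 of 46 lay below their mean, and in PCN 27 42 of 46 did. The median deviation was 0.25, 0.00 and -0.42 on the log2 scale in PCN 5, 11 and 27, 0.31 in Vehicle 55 but -0.13 and 0.02 in Vehicle 15 and 23, -0.46, -0.19 and 0.01 in HFD 4, 30 and 38, and 0.08, 0.60 and -0.13 in Chow 8, 17 and 19. Libraries of every group therefore overlapped in the level of the whole set, and the pooled SD within groups was 0.30. For this reason a count of genes on 1 side of a comparison is not a count of independent observations.

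**Figure D2:**
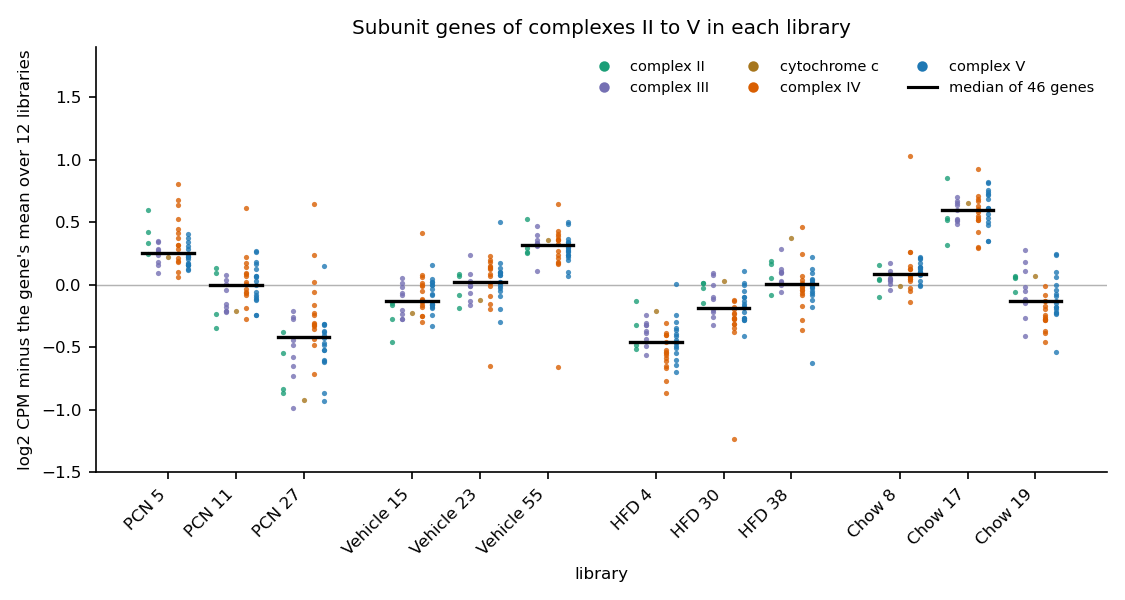
Deviation of each of 46 subunit genes from its own mean over 12 libraries, in log2 CPM, by library and coloured by complex, with the median as a black line. The medians run from -0.46 in HFD 4 to 0.60 in Chow 17, and every group holds both a higher and a lower library.

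Fibre and mitochondrial markers went with the subunit levels in some of these libraries and not in others. Myh4, the myosin heavy chain of the fastest IIB fibres, was at 31890, 72540 and 58390 CPM in PCN 5, 11 and 27, at 83280, 64190 and 35080 CPM in Vehicle 15, 23 and 55, at 87490, 66850 and 53040 CPM in HFD 4, 30 and 38, and at 68830, 46580 and 56440 CPM in Chow 8, 17 and 19. It was thus lowest, within its group, in PCN 5, Vehicle 55, HFD 38 and Chow 17, which are also the libraries with the highest subunit levels of their groups. In Vehicle and HFD, Myh4 fell from library to library as the subunit level rose. In PCN and Chow the order of the other libraries differed. PCN 27 had less Myh4 than PCN 11 but a lower median subunit deviation (-0.42 against 0.00), as had Chow 19 beside Chow 8 (-0.13 against 0.08). Myh1, the IIX myosin, was at 11400 CPM in PCN 5 and 9640 CPM in Vehicle 55, against 2222 to 3694 CPM in the other PCN and Vehicle libraries. It was at 4402, 6582 and 7822 CPM in HFD 4, 30 and 38. In Chow 8, 17 and 19 it was at 5756, 7099 and 6729 CPM. Myh2, the IIA myosin, was analysed only in HFD and Chow. Its levels were 559, 2705 and 2438 CPM in HFD 4, 30 and 38. For Chow 8, 17 and 19 they were 1491, 2940 and 2789 CPM. Transcripts of the mitochondrial genome took 18.5%, 13.1% and 11.1% of the counts in PCN 5, 11 and 27, 12.7%, 14.3% and 19.5% in Vehicle 15, 23 and 55, 10.8%, 15.3% and 12.1% in HFD 4, 30 and 38, and 15.8%, 20.4% and 15.2% in Chow 8, 17 and 19. They were thus highest in PCN 5, Vehicle 55 and Chow 17, but in HFD the share was highest in HFD 30 and the subunit level in HFD 38.

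Slow fibre genes set Chow 17 and Chow 19 apart. Myh7, the slow myosin, lay between 1.05 and 2.03 CPM in HFD. In Chow it stood at 184 CPM (Chow 17), 312 CPM (Chow 19) and 2.30 CPM (Chow 8). All 12 tested members of a list of 13 slow fibre genes had lower fitted levels in HFD than in Chow, and their summed level was 97.0 to 328 CPM in HFD and 261 to 1386 CPM in Chow. The sums of Chow 17 and Chow 19 were close (1372 and 1386 CPM), while their median subunit deviations were 0.60 and -0.13. Of the 13, 4 were analysed in the other table, with sums of 33.0 to 460 CPM in PCN and 28.5 to 173 CPM in Vehicle, where Tpm3 and Casq2 were highest in PCN 5. Ucp1, the defining gene of brown fat, was at 0 to 0.34 CPM in PCN and Vehicle libraries and not analysed here in the other table. The part of fibre makeup in the results below was not tested.

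The first comparison asks what the high-fat diet does, with HFD set against Chow. Each of the 46 genes had its fitted level below Chow in HFD. Their median log2 fold change was -0.40 against 0.00 for all 12686 genes tested, and none passed an adjusted p of 0.05 (edgeR, Benjamini-Hochberg, 0% of all genes passed). At an unadjusted p under 0.05, 9 of the 46 were lower, where 3.92% of all genes were. These were Sdhc, Cox4i1, Cox5a, Cox6a2, Cox8b, Atp5e, Atp5g1, Atp5g2 and Atp5o. In 7 of the 46 all HFD libraries lay below all Chow libraries (Sdhc, Uqcrc1, Cox6a2, Atp5a1, Atp5b, Atp5g1 and Atp5g2), where 6.92% of the 12625 genes tested here and held in both tables did so. Markers of other cell types also differed between these groups, though none passed adjustment in edgeR. All 5 red blood cell genes had lower fitted levels in HFD (median -0.71, 4 with an unadjusted p under 0.05), with summed levels of 45.9 to 57.8 CPM in HFD, below 65.8 to 127 CPM in Chow. All 6 macrophage genes had higher ones (median 0.53, 2 with an unadjusted p under 0.05), with sums of 31.0 to 68.2 CPM in HFD and 25.7 to 39.9 CPM in Chow. The part of these cells in the subunit values was not tested.

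The medians of the complexes lay close together. The median log2 fold change in HFD relative to Chow was -0.31 for complex II, -0.34 for complex III, -0.43 for complex IV and -0.44 for complex V. Over all genes, 977 had an unadjusted p under 0.05 and 0 passed adjustment in edgeR, while DESeq2 called 43, none of them a subunit gene. The median was -0.19 without Chow 17. In a fit of all 12 libraries it was -0.42, and -0.29 when Chow 17 and Chow 19 were left out of that fit, which leaves Chow 8 alone for Chow and takes the spread from the other groups. In the 6-library fit without Chow 19, 35 of 46 subunit genes had an unadjusted p under 0.05, as had 2185 of all 12933 genes tested. The subunit count was 2 each when Chow 17, HFD 4 or HFD 30 was left out, 5 without Chow 8 and 23 without HFD 38. Without Chow 19, Atp5g2 and Cox6a2 were among 219 genes that passed adjustment (edgeR adjusted p = 0.0255 and 0.0376). Their adjusted p ran from 0.00686 to 0.998 and from 0.0272 to 0.998 over the alternatives that do not leave out both Chow 17 and Chow 19.

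The second comparison sets PCN against Vehicle, both injected and both on the high-fat diet. The subunit genes showed no difference that the replicates could resolve: 39 had lower and 7 had higher fitted levels in PCN, with a median of -0.12 against 0.01 for all 12833 genes tested. None had even an unadjusted p under 0.05, where 1.47% of all genes were lower and 1.35% were higher at that level. None passed adjustment (0% of all genes in edgeR, lowest adjusted p 0.998, with 362 genes at an unadjusted p under 0.05 and 0 called by DESeq2). Only Cox6a2 had PCN libraries that all lay below the Vehicle libraries, which 4.06% of genes did. The medians of complexes II, III, IV and V were -0.09, -0.13, -0.08 and -0.13, and the overall median was 0.049 without PCN 27, -0.0017 without Vehicle 55, -0.22 without Vehicle 15 and -0.30 without PCN 5. In the same contrast all 5 red blood cell genes (median -0.62), all 6 fibroblast and matrix genes (median -0.45) and 6 of 7 adipocyte genes (median -1.20) had lower fitted levels in PCN, with none passing adjustment in edgeR; their summed levels overlapped between PCN and Vehicle.

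The third comparison sets Vehicle against HFD, which differ in the injections and also lie in different tables, so that the injections and the tables cannot be told apart. It shares the HFD libraries with the comparison to Chow and the Vehicle libraries with that of PCN. Both tables give the same symbol and coordinates for all 21976 shared genes. Of the 46 genes, 42 had higher and 4 had lower fitted levels in Vehicle, with a median of 0.28 against 0.00 for all 13375 genes tested. None passed adjustment (edgeR, 0% of all genes, 1708 at an unadjusted p under 0.05), and 5 had an unadjusted p under 0.05 and were higher, where 6.26% of genes were. In 12 genes all Vehicle libraries lay above all HFD libraries, where 11.8% of genes did. The subunit median was 0.16 without Vehicle 55 and 0.17 without HFD 4. Beside it, all 5 red blood cell genes had higher fitted levels in Vehicle (median 1.07, 1 with an unadjusted p under 0.05), with sums on the 12-library scale of 44.9 to 214 CPM in Vehicle, the highest in Vehicle 55, and 48.4 to 59.8 CPM in HFD. Of 6 fibroblast and matrix genes, 5 had lower ones (median -0.61, 3 with an unadjusted p under 0.05), with sums of 328 to 470 CPM in Vehicle, below 501 to 883 CPM in HFD. The 6 skeletal muscle genes split, with 3 lower and 3 higher in Vehicle (-0.85 to 0.41), 2 of the lower ones with an unadjusted p under 0.05. Their sums on the 12-library scale were 142200 to 195700 CPM in Vehicle, below 226600 to 310100 CPM in HFD. None of these passed adjustment in edgeR, and their part in the subunit values was not tested. DESeq2 called 246 genes, Atp5g2 and Cox6a2 among them.

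The medians in Vehicle relative to HFD were 0.09 for complex II, 0.29 for complex III, 0.30 for complex IV and 0.25 for complex V. Within complex III, the 4 core and catalytic genes had a median of 0.05 and the 5 small accessory genes 0.31. Gene length moved with this contrast: among all genes tested, the median was 0.17 in the fifth with the shortest exonic length and -0.14 in the fifth with the longest, and 32 of the 46 subunit genes are among the shortest. With offsets that remove the length trend the median of the subunit genes was 0.11. The medians of complexes II, III, IV and V were then 0.003, 0.09, 0.14 and 0.19. The order of the complexes thus changed, with complex V highest. In HFD relative to Chow the fifth with the shortest length had a median of -0.12 and the fifth with the longest 0.10, and the subunit median with these offsets was -0.30.

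Over the 4 groups together, 24 of 13375 genes passed edgeR's F test (0.179%), and no subunit gene was among them. At an unadjusted p under 0.05, where 15.5% of all genes stood, there were 3 subunit genes, Atp5g2, Cox7a2l and Cox6a2. Their adjusted p-values were 0.0572, 0.200 and 0.216 (edgeR, Benjamini-Hochberg).

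**Figure D3:**
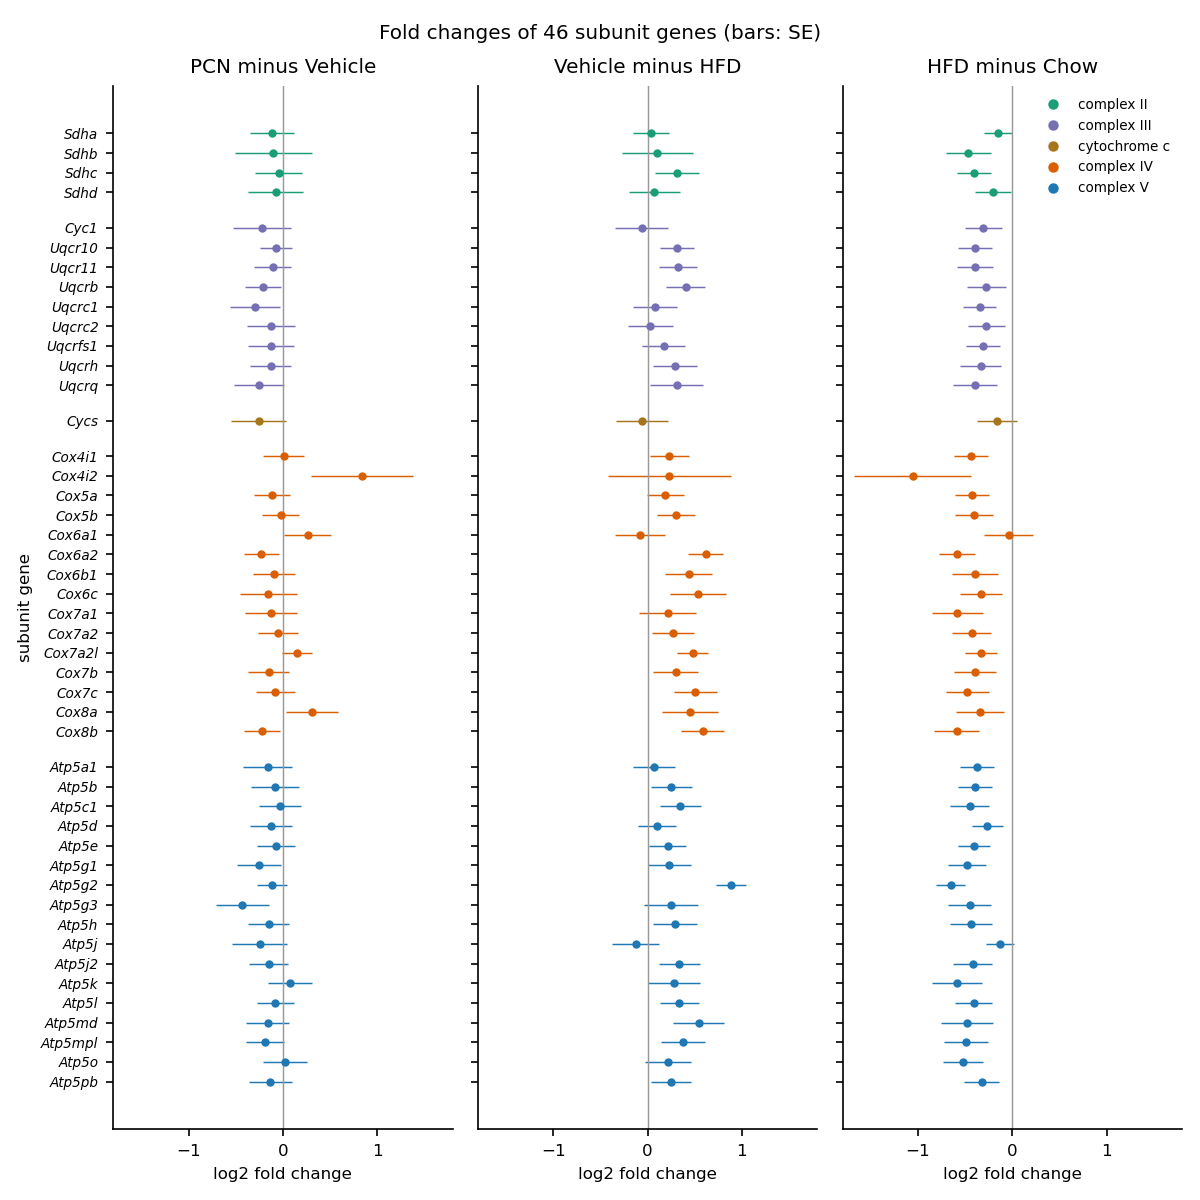
Log2 fold change with SE of 46 subunit genes, ordered by complex, for PCN minus Vehicle, Vehicle minus HFD and HFD minus Chow. All 46 points lie left of 0 in HFD minus Chow (median -0.40), 42 lie right of 0 in Vehicle minus HFD (median 0.28), and those of PCN minus Vehicle run from -0.43 (Atp5g3) to 0.84 (Cox4i2, median of all -0.12); Vehicle serves in the first 2 panels and HFD in the last 2.

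Complex II, succinate dehydrogenase, is the only complex here with no subunit from the mitochondrial genome. Sdha, which carries the flavin and oxidises succinate, varied little, at 664, 475 and 431 CPM in PCN libraries 5, 11 and 27, 507, 528 and 667 CPM in Vehicle 15, 23 and 55, 511, 566 and 580 CPM in HFD 4, 30 and 38, and 574, 699 and 587 CPM in Chow 8, 17 and 19. Its groups overlapped in each comparison, with log2 fold changes of -0.15 ± 0.15 (SE) in HFD relative to Chow and -0.12 ± 0.23 in PCN relative to Vehicle.

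Sdhb, the iron-sulfur subunit that passes electrons on, had the third largest spread within groups of all the subunit genes (SD 0.53 in log2 CPM, after Cox6b2 and Cox4i2). It was at 305, 159 and 111 CPM in PCN 5, 11 and 27, 147, 178 and 292 CPM in Vehicle 15, 23 and 55, 142, 204 and 227 CPM in HFD 4, 30 and 38, and 225, 366 and 211 CPM in Chow 8, 17 and 19. PCN 5, Vehicle 55 and Chow 17 stood highest, and the differences between groups were smaller than this spread (-0.10 ± 0.41 in PCN relative to Vehicle, -0.46 ± 0.24 in HFD relative to Chow, or -0.19 without Chow 17 and -0.29 without HFD 4). Sdhc and Sdhd, the membrane anchors that bind heme, averaged 103 ± 33.2 and 82.4 ± 31.1 CPM in PCN, 107 ± 16.6 and 86.8 ± 16.1 CPM in Vehicle, 85.9 ± 12.2 and 82.4 ± 14.4 CPM in HFD, and 115 ± 26.6 and 96.2 ± 22.2 CPM in Chow (SD, n = 3). Sdhc had the lowest p of the complex in HFD relative to Chow (-0.41 ± 0.18, unadjusted p 0.0459, edgeR adjusted p 0.644).

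In complex III, the core subunit Uqcrc1 was at 397, 320 and 225 CPM in PCN 5, 11 and 27, 308, 355 and 490 CPM in Vehicle 15, 23 and 55, 301, 393 and 399 CPM in HFD 4, 30 and 38, and 420, 563 and 421 CPM in Chow 8, 17 and 19. The Chow libraries lay above the HFD libraries, with HFD at -0.35 ± 0.17 relative to Chow (edgeR adjusted p 0.651), while PCN overlapped Vehicle (-0.29 ± 0.26). Without Chow 17 and without HFD 4 the value in HFD relative to Chow was -0.21 and -0.23, and that in PCN relative to Vehicle was -0.50 without PCN 5, -0.098 without PCN 27 and -0.090 without Vehicle 55. The other core subunit, Uqcrc2, the Rieske iron-sulfur protein gene Uqcrfs1 and the cytochrome c1 gene Cyc1 were at -0.28, -0.31 and -0.31 in HFD relative to Chow, and at 0.030, 0.17 and -0.06 in Vehicle relative to HFD. Cycs, the mobile carrier between complexes III and IV, was at -0.16 ± 0.21 in HFD relative to Chow, with 118 ± 44.2 CPM in PCN, 140 ± 31.9 CPM in Vehicle, 146 ± 30.0 CPM in HFD and 166 ± 44.0 CPM in Chow (SD, n = 3).

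The small accessory subunits of complex III stabilise the core. Uqcr10 was at 74.5, 69.0 and 54.9 CPM in PCN 5, 11 and 27, 68.1, 69.5 and 70.9 CPM in Vehicle 15, 23 and 55, 48.5, 52.4 and 66.5 CPM in HFD 4, 30 and 38, and 66.8, 93.2 and 63.3 CPM in Chow 8, 17 and 19. Its Vehicle libraries lay above its HFD libraries, as did those of Uqcrb, with log2 fold changes of 0.31 ± 0.18 and 0.41 ± 0.21 in Vehicle relative to HFD (edgeR adjusted p 0.483 and 0.423). Uqcr11 was at 0.33 ± 0.20 in Vehicle relative to HFD and at -0.39 ± 0.19 in HFD relative to Chow, and Uqcrq at -0.25 ± 0.27 in PCN relative to Vehicle.

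In complex IV the muscle forms outweighed their ubiquitous partners in every library. As a share of the pair's counts per kb, Cox6a2 made up 97.4% to 98.9% of subunit 6A, Cox8b 90.3% to 95.9% of subunit 8, and Cox7a1 73.7% to 80.4% of subunit 7A. The pair Cox8b and Cox8a is printed here, since these genes showed the widest range of ratios; their start regions, 250 bases before to 50 after the start from RefSeq (GRCm38.p6), lie at chr7:140900397-140900696, minus strand, and chr19:7217567-7217866, minus strand. Capitals mark matches to the motifs named further on, which the Cox8a region holds at -5 and 33 from the start (both ETS) and the Cox8b region does not.
Cox8b: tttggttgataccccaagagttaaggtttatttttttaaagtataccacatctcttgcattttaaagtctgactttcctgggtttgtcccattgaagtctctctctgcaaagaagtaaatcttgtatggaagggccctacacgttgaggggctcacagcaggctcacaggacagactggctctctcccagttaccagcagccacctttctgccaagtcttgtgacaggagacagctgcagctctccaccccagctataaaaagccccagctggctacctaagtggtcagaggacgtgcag
Cox8a: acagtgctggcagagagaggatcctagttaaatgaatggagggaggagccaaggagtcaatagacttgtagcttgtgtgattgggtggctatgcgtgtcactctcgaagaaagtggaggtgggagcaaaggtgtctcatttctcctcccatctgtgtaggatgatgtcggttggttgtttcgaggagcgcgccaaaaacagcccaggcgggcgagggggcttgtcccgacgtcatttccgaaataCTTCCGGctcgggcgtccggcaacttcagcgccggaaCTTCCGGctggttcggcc

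Cox6a2 (ENSMUSG00000030785, chr7:128205435-128206387, GRCm38) was at 562, 507 and 547 CPM in PCN 5, 11 and 27, 568, 631 and 687 CPM in Vehicle 15, 23 and 55, 375, 432 and 419 CPM in HFD 4, 30 and 38, and 645, 768 and 453 CPM in Chow 8, 17 and 19. All 3 HFD libraries lay below all 9 others, as in 1.75% of the 13375 genes tested; of the 46 subunit genes only Cox6a2 and Atp5g2 did so. The log2 fold change was -0.59 ± 0.19 in HFD relative to Chow (edgeR adjusted p 0.622), 0.62 ± 0.19 in Vehicle relative to HFD (adjusted p 0.231) and -0.23 ± 0.19 in PCN relative to Vehicle. Its ubiquitous partner Cox6a1 was at 5.16 to 9.76 CPM, or 68 to 168 counts, over all libraries. The log2 fold change of Cox6a1 was -0.04 ± 0.26 in HFD relative to Chow and -0.08 ± 0.27 in Vehicle relative to HFD.

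Cox8b was at 192, 181 and 137 CPM in PCN 5, 11 and 27, 177, 194 and 222 CPM in Vehicle 15, 23 and 55, 107, 137 and 151 CPM in HFD 4, 30 and 38, and 185, 278 and 140 CPM in Chow 8, 17 and 19. Vehicle lay above HFD (0.58 ± 0.23, edgeR adjusted p 0.306), and HFD overlapped Chow, where Chow 19 was low (-0.59 ± 0.24, adjusted p 0.635). Cox7a1, the muscle form of subunit 7A, was at -0.58 ± 0.27 in HFD relative to Chow and at 0.21 ± 0.30 in Vehicle relative to HFD. The 3 muscle forms thus had a median of -0.59 in HFD relative to Chow and the 3 ubiquitous partners -0.34, with Cox7a2 at -0.43 ± 0.21 and Cox8a at -0.34 ± 0.26. With length offsets Cox6a2, Cox8b and Cox7a1 were at -0.38, -0.35 and -0.36 in HFD relative to Chow. Values with offsets are not given here for the partners, so the muscle and ubiquitous forms are not compared on that scale. Without Chow 17, Cox8b was at -0.30 and Cox7a1 at -0.26. In Vehicle relative to HFD the offsets gave 0.39 for Cox6a2 and 0.35 for Cox8b.

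The ratio of each muscle form to its partner, which does not depend on library scaling, gave no difference between the 4 groups that passed an exact permutation test of the between-group sum of squares over the 12 libraries. The log2 ratio of Cox6a2 to Cox6a1 counts was 6.17 ± 0.37 in PCN, 6.64 ± 0.14 in Vehicle, 5.99 ± 0.46 in HFD and 6.46 ± 0.10 in Chow (SD, n = 3, exact p = 0.104, adjusted over the 3 ratios 0.311). The ratio of Cox7a1 to Cox7a2 was 1.06 ± 0.23 in PCN, 1.14 ± 0.22 in Vehicle, 1.20 ± 0.17 in HFD and 1.35 ± 0.11 in Chow (exact p = 0.357, adjusted 0.357). That of Cox8b to Cox8a was 3.20 ± 0.68 in PCN, 3.71 ± 0.17 in Vehicle, 3.58 ± 0.17 in HFD and 3.78 ± 0.061 in Chow (exact p = 0.249, adjusted 0.357).

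The low Cox8b to Cox8a ratios lay in PCN 27 (2.60) and PCN 5 (3.07), while PCN 11 had the highest of all libraries (3.94). Cox8a itself was at 22.9, 11.8 and 22.5 CPM in PCN 5, 11 and 27, and at 7.81 to 19.2 CPM in the 9 other libraries. Without PCN 11 the adjusted exact p of this ratio was 0.0173, within a range of 0.0173 to 0.703 over the libraries left out.

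**Figure D4:**
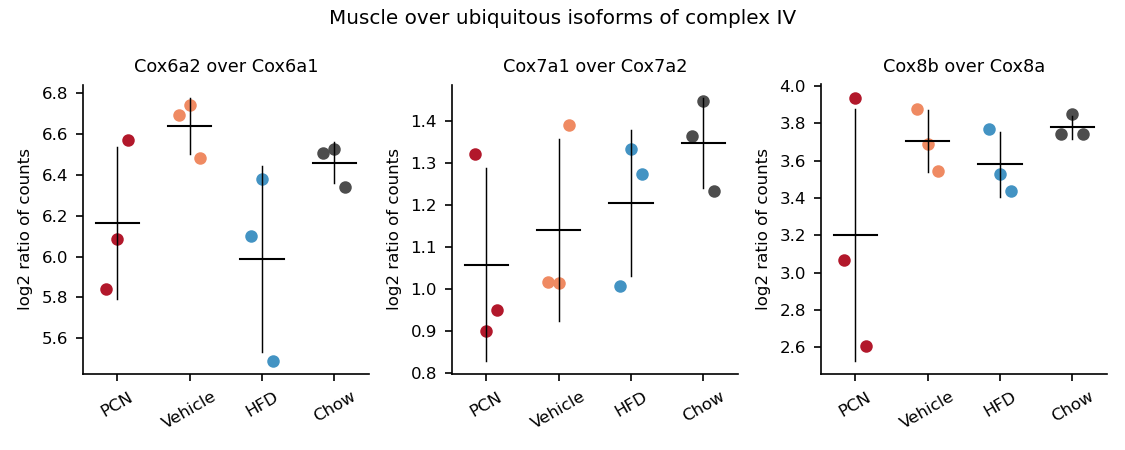
Log2 ratio of counts (with 0.5 added) of the muscle form to the ubiquitous form for 3 complex IV subunits, 1 point per library in PCN, Vehicle, HFD and Chow, with the mean and SD. The points of Cox6a2 over Cox6a1 do not overlap between Vehicle and HFD, with Vehicle at 6.48 to 6.74 and HFD at 5.49 to 6.38, Vehicle overlaps Chow, and PCN 27 is the lowest point of Cox8b over Cox8a (2.60).

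Among the other complex IV genes, Cox7a2l is a relative of subunit 7A known as a supercomplex factor. It was at 136, 115 and 120 CPM in PCN 5, 11 and 27, and 102, 113 and 119 CPM in Vehicle 15, 23 and 55. In HFD 4, 30 and 38 it was at 70.2, 85.0 and 83.7 CPM, and in Chow 8, 17 and 19 at 100, 126 and 78.7 CPM. HFD lay below PCN and Vehicle, and overlapped Chow. The log2 fold change was 0.48 ± 0.17 in Vehicle relative to HFD (edgeR adjusted p 0.260), -0.33 ± 0.17 in HFD relative to Chow and 0.15 ± 0.16 in PCN relative to Vehicle; with length offsets that of Vehicle relative to HFD was 0.30. Cox4i1, the main form of subunit 4, was at 227 ± 50.6 CPM in PCN, 225 ± 31.9 CPM in Vehicle, 191 ± 21.6 CPM in HFD and 263 ± 65.7 CPM in Chow (SD, n = 3). Its lung form Cox4i2 had at most 15 counts in a library, and its log2 fold changes of 0.84 ± 0.54 in PCN relative to Vehicle and -1.06 ± 0.62 in HFD relative to Chow rest on those few reads. Cox6b1, the main form of subunit 6B, was at 0.44 ± 0.25 in Vehicle relative to HFD and -0.40 ± 0.24 in HFD relative to Chow.

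Complex V joins the F1 head, which makes ATP, to the Fo ring in the membrane by a central and a peripheral stalk. In HFD relative to Chow the medians were -0.39 for the 5 F1 genes, -0.38 for the 4 peripheral stalk genes, -0.48 for the 3 c-ring genes and -0.48 for the other 5 Fo genes. Atp5b was at 1850, 1412 and 1155 CPM in PCN 5, 11 and 27, 1337, 1500 and 1845 CPM in Vehicle 15, 23 and 55, 1140, 1344 and 1440 CPM in HFD 4, 30 and 38, and 1652, 2119 and 1449 CPM in Chow 8, 17 and 19. HFD 38 and Chow 19 nearly met, and the log2 fold change was -0.39 ± 0.18 (edgeR adjusted p 0.647).

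None of the stalk and Fo genes passed edgeR's adjusted threshold in any of the 3 comparisons. Atp5o, the stalk protein OSCP that holds the F1 head, was at -0.53 ± 0.21 in HFD relative to Chow (adjusted p 0.635 in edgeR), whereas Atp5j, the coupling factor of the same stalk, was at -0.13 ± 0.15. Atp5md, a small Fo associated protein, was at 0.54 ± 0.27 in Vehicle relative to HFD and Atp5l, subunit g, at 0.34 ± 0.21. Atp5mpl, the other small Fo associated protein, had Vehicle libraries at 38.5 to 43.5 CPM, above HFD libraries at 25.5 to 36.6 CPM.

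The 3 c-ring genes had lower fitted levels in HFD than in Chow and higher ones in Vehicle than in HFD. They encode the same mature ring subunit behind different import peptides, and their start regions are printed because Atp5g2 had the lowest p of all the subunit genes in HFD relative to Chow and in Vehicle relative to HFD. From RefSeq (GRCm38.p6), that of Atp5g1 lies at chr11:96075582-96075881, minus strand, that of Atp5g2 at chr15:102670998-102671297, minus strand, and that of Atp5g3 at chr2:73911277-73911576, minus strand. Capitals mark an NRF1 match in Atp5g2, with its first base at -41 from the start, and an ERR match in Atp5g3 at -52; Atp5g1 has neither.
Atp5g1: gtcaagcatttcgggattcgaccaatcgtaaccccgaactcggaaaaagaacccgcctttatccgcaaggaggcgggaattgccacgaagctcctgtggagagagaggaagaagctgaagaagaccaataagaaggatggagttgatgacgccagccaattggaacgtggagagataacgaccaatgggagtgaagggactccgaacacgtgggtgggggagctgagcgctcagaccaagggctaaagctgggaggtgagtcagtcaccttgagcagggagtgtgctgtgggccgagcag
Atp5g2: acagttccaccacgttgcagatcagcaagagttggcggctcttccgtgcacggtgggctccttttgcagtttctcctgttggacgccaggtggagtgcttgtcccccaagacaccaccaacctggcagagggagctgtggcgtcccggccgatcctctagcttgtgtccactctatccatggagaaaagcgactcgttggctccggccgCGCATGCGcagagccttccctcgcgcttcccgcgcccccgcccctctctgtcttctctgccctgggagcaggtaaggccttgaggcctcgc
Atp5g3: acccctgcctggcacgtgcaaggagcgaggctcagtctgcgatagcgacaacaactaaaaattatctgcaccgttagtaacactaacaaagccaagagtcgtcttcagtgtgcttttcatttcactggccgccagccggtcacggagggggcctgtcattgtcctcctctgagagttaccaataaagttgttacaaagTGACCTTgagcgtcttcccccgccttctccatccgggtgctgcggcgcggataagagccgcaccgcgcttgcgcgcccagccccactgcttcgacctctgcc

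Atp5g2 (ENSMUSG00000062683, chr15:102662864-102672352, GRCm38) was at 59.4, 63.6 and 58.5 CPM in PCN 5, 11 and 27, 58.6, 74.4 and 63.1 CPM in Vehicle 15, 23 and 55, 32.4, 39.5 and 34.0 CPM in HFD 4, 30 and 38, and 55.5, 67.2 and 46.0 CPM in Chow 8, 17 and 19. All HFD libraries lay below all others, and the PCN and Vehicle libraries, which had the same diet with injections, lay among those of Chow or above. The log2 fold change was -0.65 ± 0.16 in HFD relative to Chow (unadjusted p 0.00173, edgeR adjusted p 0.433), 0.89 ± 0.16 in Vehicle relative to HFD (adjusted p 0.116) and -0.11 ± 0.16 in PCN relative to Vehicle. In Vehicle relative to HFD it passed with DESeq2 (adjusted p 0.000837) and in an edgeR fit of the 6 libraries alone (0.0246), over a range of 0.000837 to 0.710 in 12 alternatives.

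Atp5g1 and Atp5g3 followed the library pattern of the whole set; whether Atp5g2 differs from them between groups was not tested. Atp5g1 was at 196, 167 and 118 CPM in PCN 5, 11 and 27, 161, 176 and 232 CPM in Vehicle 15, 23 and 55, 132, 168 and 185 CPM in HFD 4, 30 and 38, and 193, 301 and 193 CPM in Chow 8, 17 and 19. Atp5g3 was at 124, 96.1 and 62.5 CPM in PCN 5, 11 and 27, 96.3, 122 and 162 CPM in Vehicle 15, 23 and 55, 81.1, 115 and 124 CPM in HFD 4, 30 and 38, and 128, 201 and 114 CPM in Chow 8, 17 and 19. Both were highest in Chow 17 and had their group's highest value in PCN 5 and Vehicle 55, with log2 fold changes of 0.23 ± 0.23 and 0.25 ± 0.28 in Vehicle relative to HFD.

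As a share of all c-ring counts, Atp5g2 made up 19.9% ± 4.43 in PCN, 17.4% ± 3.21 in Vehicle, 11.8% ± 1.69 in HFD and 13.2% ± 1.47 in Chow (SD, n = 3). The ranges were 15.7% to 24.5% in PCN and 13.8% to 20.0% in Vehicle, above 9.91% to 13.2% in HFD, which overlapped 11.8% to 14.7% in Chow. The share of Atp5g1 ran from 49.3% to 51.6% in PCN and from 47.3% to 51.0% in Vehicle, below 52.1% to 53.9% in HFD, with Chow at 51.2% to 54.6%. That of Atp5g3 averaged 29.5% in PCN, 32.9% in Vehicle, 35.0% in HFD and 33.9% in Chow. Raw counts favour long transcripts. Per kb, Atp5g2 held 29.2% to 43.3% in PCN, 25.7% to 35.0% in Vehicle, 19.3% to 25.4% in HFD and 22.6% to 27.4% in Chow. On that scale Atp5g1 held 18.2% to 23.3% over all libraries, and Atp5g3 the most in every library except PCN 27, where Atp5g2 did. This order depends on the lengths used, which were 2675.5 bp for Atp5g1, 586 bp for Atp5g2 and 718.5 bp for Atp5g3. Each is a median over the coding transcripts of the gene, and which of them this muscle uses was not determined. The c-ring transcripts are alike in their mature coding part and have processed copies in the genome, so reads can be lost or moved between them.

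**Figure D5:**
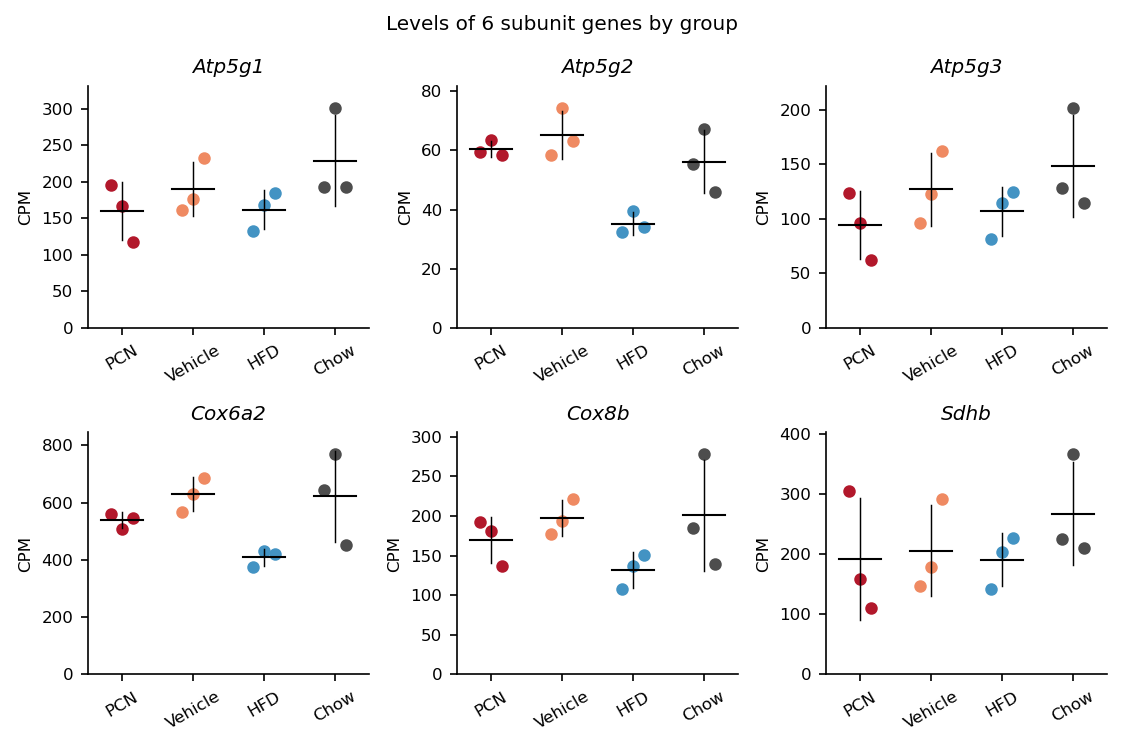
CPM of the c-ring genes Atp5g1, Atp5g2 and Atp5g3, of the muscle forms Cox6a2 and Cox8b and of Sdhb, 1 point per library in PCN, Vehicle, HFD and Chow, with the mean and SD. The HFD points of Atp5g2 (32.4 to 39.5 CPM) and Cox6a2 (375 to 432 CPM) lie below all others, while those of Sdhb overlap every group.

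The start regions of 36 of the 48 genes were found in RefSeq (GRCm38.p6) and searched on both strands for 4 motifs of factors known to drive respiratory genes. CGCATGCG, the NRF1 core, occurred in 8 of 36 (22.2%), against 2.07% of 27025 genes with a region of the same length. CCGGAAG, the ETS motif bound by GABP, occurred in 13 (36.1%, against 9.93%), AAGGTCA, the core site of the ERR receptors, in 5 (13.9%, against 5.38%), and AAGATGGCG, the YY1 motif, in 2 (5.56%, against 1.64%). At least 1 of the motifs stood in 18 of the 36 (50.0%, against 17.6%). The NRF1, ETS and YY1 motifs hold CG, and the 36 regions are richer in CG dinucleotides than those of all genes (median 19 against 7). The shares were not compared with regions of like CG content. Neither Cox7a1 nor Cox8b, the muscle forms with a region in the table, held any; they had 7 and 2 CG dinucleotides, against a median of 19 over the 36 and 7 over all genes in the table. Neither trait is particular to them, since Cox7a2, the partner of Cox7a1, held none of the motifs either and Cox7b had 5 CG dinucleotides. Regions were not found for Cox6a2, Cox4i1, Cox4i2, Cox6c, Cox6c2, Uqcrb, Uqcrc2, Uqcrq, Cyc1, Sdhc, Atp5a1 and Atp5mpl.

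The partners that the mitochondrial genome encodes had fitted levels mostly on the same side as the subunit genes. All 5 tested in HFD relative to Chow were lower, with a median of -0.52, and mt-Co1 (-0.52 ± 0.23), mt-Co3 (-0.71 ± 0.28) and mt-Atp6 (-0.64 ± 0.25) had an unadjusted p under 0.05 but not an adjusted one (edgeR adjusted p 0.644, 0.635 and 0.635). The levels behind these differ widely, since mt-Co3 averaged 15.0 CPM in PCN, 12.8 CPM in Vehicle, 11.4 CPM in HFD and 18.9 CPM in Chow, and mt-Atp6 averaged 5.05 CPM in PCN, 5.70 CPM in Vehicle, 4.92 CPM in HFD and 7.78 CPM in Chow. Group means of mt-Co2 were 12.1 to 17.0 CPM and those of mt-Atp8 0.24 to 0.61 CPM, against 6147 to 9657 CPM for mt-Cytb. The values of mt-Co2, mt-Co3, mt-Atp6 and mt-Atp8 thus rest on a small part of the counts from this genome, and why was not tested. In Vehicle relative to HFD 5 of 6 were higher, with a median of 0.22, and in PCN relative to Vehicle 4 of 5 were lower, with a median of -0.16. Cytochrome oxidase subunit 1, mt-Co1, was at 45940 ± 13390 CPM in PCN, 48340 ± 10150 CPM in Vehicle, 38110 ± 7077 CPM in HFD and 55400 ± 13280 CPM in Chow (SD, n = 3).

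Assembly factors of the 4 complexes had medians nearer 0, with no test of that difference. Of 37 tested in HFD relative to Chow, 28 were lower, with a median of -0.13, and 26 of 38 were higher in Vehicle relative to HFD, with a median of 0.10; none passed adjustment. Uqcc3, needed to assemble complex III, was at 21.5 ± 0.98 CPM in PCN, 18.6 ± 1.53 CPM in Vehicle, 13.1 ± 1.02 CPM in HFD and 17.6 ± 2.98 CPM in Chow, with 0.49 ± 0.15 in Vehicle relative to HFD (SE, edgeR adjusted p 0.231). Sdhaf1, which helps to mature the iron-sulfur subunit of complex II, and Surf1, an assembly factor of complex IV, were at 0.64 ± 0.20 and 0.50 ± 0.18 in Vehicle relative to HFD (edgeR adjusted p 0.237 and 0.272). On the other side, Taco1, a translational activator of mt-Co1, and Ttc19, a factor of complex III, were at -0.58 ± 0.18 and -0.39 ± 0.15 (edgeR adjusted p 0.237 and 0.289). In all, 6 of the 38 were higher and 2 lower in Vehicle at an unadjusted p under 0.05. Of all genes tested, 6.26% were higher and 6.51% lower at that level.

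Of 16 regulators of respiratory genes, 13 were lower in HFD relative to Chow with a median of -0.14, and 12 were lower in Vehicle relative to HFD with a median of -0.13, a contrast in which most subunit genes were higher. Ppargc1a, the coactivator PGC-1 alpha, was at 48.4 ± 13.4 CPM in PCN, 39.3 ± 10.9 CPM in Vehicle, 79.5 ± 9.81 CPM in HFD and 110 ± 66.2 CPM in Chow, with -1.02 ± 0.38 in Vehicle relative to HFD (edgeR adjusted p 0.301). Perm1, a muscle coregulator of the same genes, was at -0.76 ± 0.23 in HFD relative to Chow (edgeR adjusted p 0.581). Nrip1, also on the list, was at 0.60 ± 0.20 in that contrast (edgeR adjusted p 0.635). At an unadjusted p under 0.05 there, 1 regulator was lower (Perm1) and 1 higher (Nrip1). Of all genes tested, 3.92% were lower and 3.78% higher at that level.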

How the data were processed

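The deposited data are 2 tables of raw counts per gene, 1 for the HFD and Chow libraries and 1 for the PCN and Vehicle libraries. HISAT2, HTSeq, DESeq2, GRCm38 and mm10 are named in the submitters' processing notes. The sources used here give no versions, annotation release or strand setting, so overlapping and antisense genes cannot be separated. Of the -ps symbols dropped, Cox5b-ps had 77 to 241 counts (4.55% to 6.27% of Cox5b).

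HFD was fitted against Chow and PCN against Vehicle on their own 6 libraries, and Vehicle against HFD and the 4 groups on all 12 over the shared genes, with edgeR 4.0.16 in R 4.3.3: TMM, the default filter (minimum count 10), robust quasi-likelihood F tests, and Benjamini-Hochberg adjustment over all genes tested with a threshold of 0.05. SE is the log2 fold change over the square root of F. Levels per kb use the median coding transcript length in GENCODE M21. Isoform ratios add 0.5 counts and were tested by exact permutation, adjusted over the 3 ratios. Code was tested on simulated counts.

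Subunit genes and lists were chosen with earlier results of these data known. Every subunit gene is counted. Named ones are complex II, the core and paralog genes, and those with the lowest p by complex or the largest spread. Alternatives were DESeq2 1.42.0, its size factors, filters, length offsets, other fits and each library left out. Library numbers are unique, so nothing pairs libraries across groups.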

Additional observations from a re-analysis of the deposited data

How the results depend on the processing

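In HFD relative to Chow, where edgeR called 0 genes, DESeq2 called 43, edgeR without an expression filter 237 (among them Atp5g2, Atp5k, Cox6a2, Cox7a1 and Cox8b), and fits that leave out 1 library 0 to 219. In PCN relative to Vehicle, where edgeR called 0, only the fit without a filter called any (21). In Vehicle relative to HFD, where edgeR called 0, DESeq2 called 246, the fit without a filter 2 and the 6 libraries alone 193. Over the 4 groups, against 24, DESeq2 called 764, no filter 185, a mean count of at least 50 gave 14, length offsets 10, and leaving out 1 library 3 to 216. The causes were not tested. The median of the subunit genes over the libraries left out ran from -0.55 to -0.19 in HFD relative to Chow and from 0.16 to 0.39 in Vehicle relative to HFD. It crossed 0 in PCN relative to Vehicle, from -0.30 to 0.049, as did Sdhb, from -0.61 to 0.23 (0.18 without PCN 27, 0.23 without Vehicle 55 and 0.012 without PCN 11). The adjusted exact p of the Cox8b to Cox8a ratio ran from 0.0173 to 0.703. No paired analysis was possible because the library numbers are unique to each library. Groups of 3 libraries, with a pooled SD of 0.30 in the log2 level of the set, limit the precision of every value.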
